A study of Mus musculus with 4 samples.

Results

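Splicing factors and heterogeneous nuclear ribonucleoproteins (hnRNPs) were followed in RNA-seq libraries of mouse T helper 17 (Th17) cultures, the CD4+ T cells that make interleukin 17. Members were the genes whose symbols belong to the Srsf, Hnrnp, Sf3a and Sf3b, U2af, Clk and numbered Rbm families, which gave 84 of the 34745 genes in the deposited table. Setd2-CD4 cre cultures gave 2 libraries (replicates 22 and 24) and wild-type (WT) cultures gave 2 (replicates 13 and 15). In both genotypes, naive splenic CD4+ T cells from C57BL/6 mice were held for 3 days in conditions that drive the Th17 fate, and no other treatment is named in the labels. Cre under Cd4 control acts from the stage of developing T cells, and the labels do not name the deleted exons of Setd2, the age of the mice or any pooling of animals. The depth ran from 11007343 to 12518415 counts per library.

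Setd2 encodes the methyltransferase that writes trimethylation of lysine 36 on histone H3 along transcribed gene bodies. Proteins that read this mark have been tied to splicing, among them MRG15 (gene Morf4l1), which binds the splicing repressor PTBP1, and LEDGF (gene Psip1), which binds SRSF1. SR proteins bind exons through RNA recognition motifs and carry a tail rich in arginine and serine that CLK and SRPK kinases phosphorylate. HnRNPs coat nascent transcripts and often repress splice sites, while U2AF and the SF3A and SF3B subunits of the U2 snRNP mark the 3′ splice site and the branch point. Many SR and hnRNP genes limit their own output by splicing in exons that send the transcript to nonsense-mediated decay. Total counts per gene, as used here, sum productive and decay-bound forms.

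Among the 81 members tested, 18 rose and 9 fell in Setd2-CD4 cre cultures. The count of rises, 18 of 81, stood beside 16.2% of all 12927 genes tested, and the count of falls, 9 of 81, beside 14.5%. In both directions together 27 of 81 members passed (33.3%), against 30.7% of all genes, a share near the background that says nothing particular about these families. The median log2 fold change of the members was 0.04, against -0.01 over all genes tested. Members were more abundant than most genes, with a median of 135 CPM (counts relative to TMM-scaled library size) against 29.02 CPM over all genes tested. Of the 61 members at or above 42.1 CPM, 17 rose and 6 fell, and of all 5229 genes at or above that level 25.2% rose and 11.2% fell. A change of at least 2-fold was called for 4 members upward (Srsf12, Rbm42, Rbm15 and Rbm38) and 1 downward (Rbm15b), against 5.01% and 5.52% of all genes. With library totals Rbm15 (0.94) and Rbm38 (0.88) were under 2-fold. With overlapping same-strand gene models summed in, Rbm42 was not called (0.18) and Rbm15b was under 2-fold (-0.40). For Rbm15b the summed model was Manf, which held 3385 counts where Rbm15b held 1609 and did not pass itself (-0.07). No overlap between the genotypes was seen for 64 of 81 members, 34 of them higher and 30 lower, against 70.7% of all genes (34.6% higher and 36.1% lower).

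The split between rises and falls depended on how libraries were scaled. Library totals gave 14 higher and 20 lower members, upper-quartile factors 14 and 19, and FPKM values with a pseudocount of 1 gave 13 and 18. Among all genes called, the share that was higher stood at 52.7% for TMM factors, 32.9% for library totals, 37.4% for upper-quartile factors and 31.6% for those FPKM values. These scalings moved the median log2 fold change of all genes tested to -0.16, -0.12 and -0.12, and fold changes below are given relative to the TMM centre. All 27 called members kept their sign in each of the 13 other settings tried. The members' share of all counts was 1.51 and 1.51% in Setd2-CD4 cre 22 and 24, against 1.54 and 1.53% in WT 13 and 15.

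**Figure D1:**
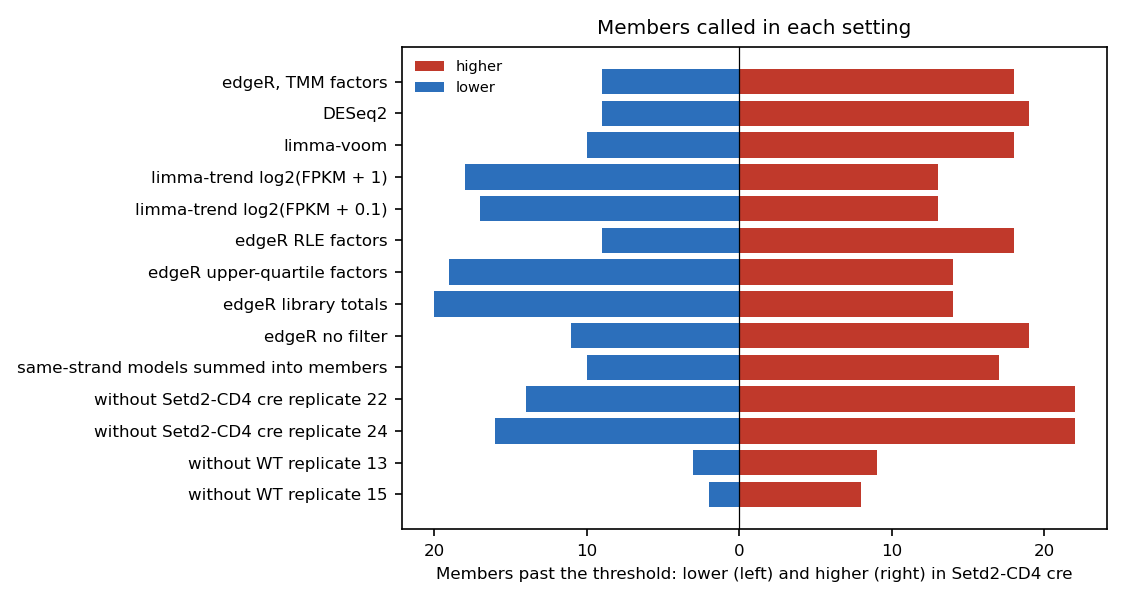
Number of members lower (left, blue) or higher (right, red) in Setd2-CD4 cre than in WT in each setting. TMM factors give 18 higher and 9 lower, library totals 14 and 20, and the fits without WT 13 and WT 15 give 9 and 3 and 8 and 2.

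**Figure D2:**
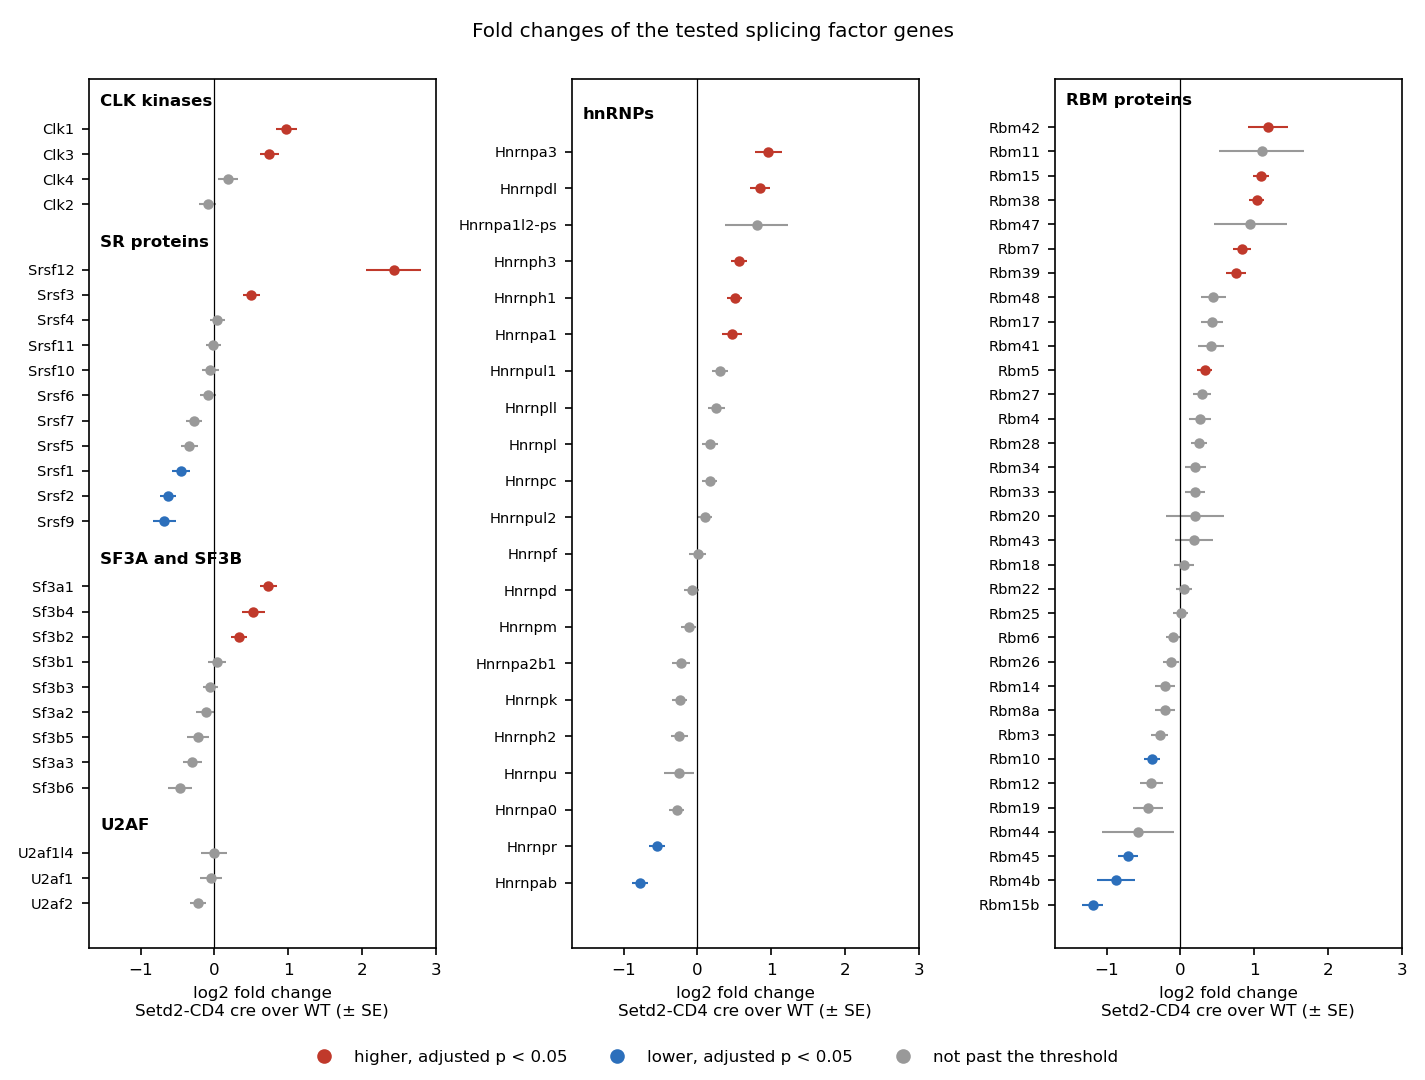
Log2 fold change (Setd2-CD4 cre over WT) of each tested member with its standard error, grouped by family, in edgeR's quasi-likelihood fit on 2 libraries per genotype. Red points rose, blue points fell and grey points did not pass an adjusted p of 0.05; Srsf12 at 2.43 and Rbm15b at -1.19 lie at the ends.

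Of the 27 called members, 8 kept their call when each library in turn was left out, 6 of them higher (Srsf12, Rbm15, Rbm38, Clk1, Hnrnpdl and Rbm7) and 2 lower (Hnrnpab and Rbm15b). These fits keep a single library of one genotype and take its spread from the rest. Over all genes, where the fit of all libraries made 3974 calls, the fits without Setd2-CD4 cre 22 and 24 made 4757 and 5706, and those without WT 13 and 15 made 1427 and 1104.

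**Figure D3:**
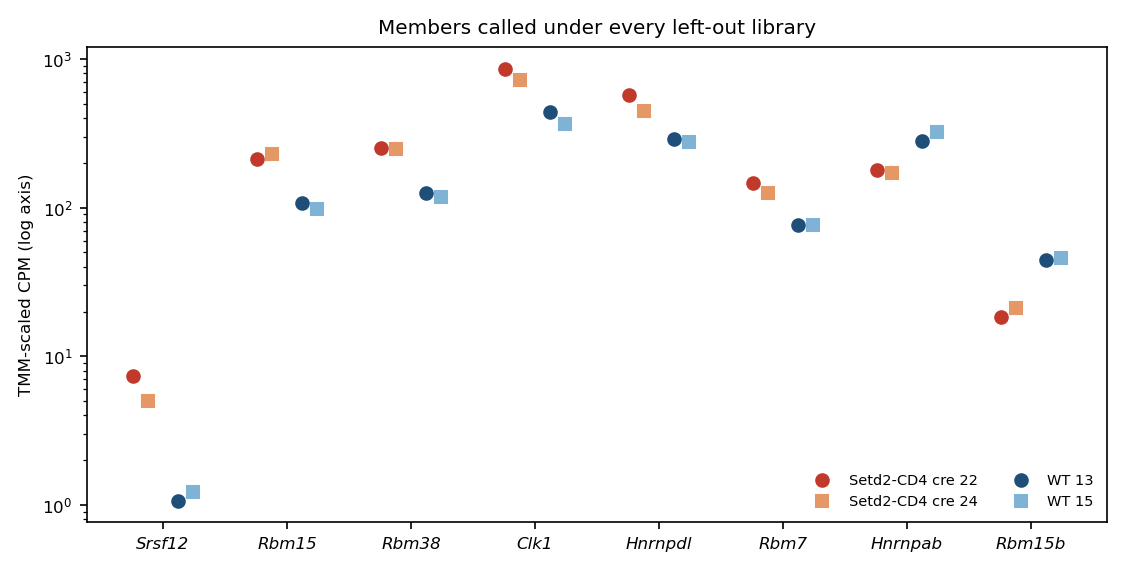
TMM-scaled CPM in each library, on a log axis, of the 8 members whose call held with any single library left out. For each gene the 2 Setd2-CD4 cre libraries stand left of the 2 WT libraries; the choice of these genes fixes that the genotypes stand apart.

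Promoter sequences are shown for 2 pairs of related genes among these 8 whose members moved in opposite directions, Rbm15 with Rbm15b and Hnrnpdl with Hnrnpab. They come from RefSeq on GRCm38.p6 and run 5′ to 3′ on the gene's strand from 250 bases before the annotated start to 50 bases after it, for Rbm15 at chr3:107333240-107333539, Rbm15b at chr9:106887026-106887325, Hnrnpdl at chr5:100039173-100039472 and Hnrnpab at chr11:51606832-51607131, all on the minus strand. The start is that of RefSeq. In the deposited table Rbm15, Rbm15b and Hnrnpdl, whose spans are given below, begin further upstream, so their windows lie within the counted spans. Capitals mark matches on either strand to CACGTG, the E-box, or to CCAAT, the CCAAT box.
Rbm15: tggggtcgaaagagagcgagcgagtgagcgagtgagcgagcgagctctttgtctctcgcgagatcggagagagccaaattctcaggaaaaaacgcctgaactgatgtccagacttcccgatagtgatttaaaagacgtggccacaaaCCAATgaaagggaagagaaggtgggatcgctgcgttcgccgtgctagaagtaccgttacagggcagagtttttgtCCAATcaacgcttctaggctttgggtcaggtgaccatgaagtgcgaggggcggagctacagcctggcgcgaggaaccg
Rbm15b: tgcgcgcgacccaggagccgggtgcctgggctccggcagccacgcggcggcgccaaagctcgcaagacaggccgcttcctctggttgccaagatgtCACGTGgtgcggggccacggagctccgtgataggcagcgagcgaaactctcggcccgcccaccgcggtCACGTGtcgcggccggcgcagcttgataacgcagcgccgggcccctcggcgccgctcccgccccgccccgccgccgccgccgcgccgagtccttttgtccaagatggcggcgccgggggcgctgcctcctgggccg
Hnrnpdl: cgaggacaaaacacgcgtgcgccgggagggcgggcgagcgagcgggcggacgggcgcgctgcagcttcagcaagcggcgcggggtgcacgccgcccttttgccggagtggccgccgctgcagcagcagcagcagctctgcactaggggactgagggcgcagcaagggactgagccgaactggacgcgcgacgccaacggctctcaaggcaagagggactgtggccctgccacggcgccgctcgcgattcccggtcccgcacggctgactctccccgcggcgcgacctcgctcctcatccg
Hnrnpab: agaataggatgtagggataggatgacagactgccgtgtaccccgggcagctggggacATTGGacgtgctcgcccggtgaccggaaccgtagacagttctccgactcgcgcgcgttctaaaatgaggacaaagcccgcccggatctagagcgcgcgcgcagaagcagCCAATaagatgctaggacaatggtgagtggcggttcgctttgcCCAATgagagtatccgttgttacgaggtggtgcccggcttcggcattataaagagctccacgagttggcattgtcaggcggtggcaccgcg
In Rbm15b an E-box begins 154 and another 86 bases before the start, and Rbm15 has none. CCAAT boxes begin 103 and 28 bases before the start in Rbm15, and 193, 84 and 41 bases before it in Hnrnpab, while Hnrnpdl has neither motif.

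RefSeq promoters were found for 71 members (90 windows) and compared with all 32851 windows of the same length. Member promoters were rich in CpG, with a median of 25 CpG and 62.0% G and C, against 7 CpG and 52.7% over all windows. The ETS core CCGGAAG was present in 23 of 90 (25.6%, against 8.86% of all), the CCAAT box in 41 of 90 (45.6%, against 37.4% of all) and the E-box in 10 of 90 (11.1%, against 7.15% of all). GAANNTTC was found in 8 of 90 (8.89%, against 7.86% of all) and TTCNNGAA in 7 of 90 (7.78%, against 8.52% of all), the 2 arrangements of the heat shock factor dimer site, which can overlap each other. TGACGTCA, the cyclic AMP response element, was found in 1 of 90 (1.11%, against 1.79% of all), and the NRF1 palindrome in 1 of 90 (1.11%, against 0.971% of all). By direction, the ETS core was in 5 of 22 windows of risen members and 1 of 10 of fallen ones, and the CCAAT box in 12 of 22 and 5 of 10. These matches describe letters in a window and are not sites. The ETS core, the E-box, TGACGTCA and the NRF1 palindrome hold a CpG, and no background of like CpG content was used. Their shares therefore cannot be told apart from the CpG content of the member promoters. Windows of 1 gene can overlap and are not independent.

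As a check of the labels, Setd2 had 144 and 153 CPM in Setd2-CD4 cre 22 and 24, against 184 and 176 CPM in WT 13 and 15 (log2 fold change -0.28 ± 0.10 SE, adjusted p = 0.0748 by edgeR). It missed the threshold, and passed it with library totals, upper-quartile factors, FPKM values and without Setd2-CD4 cre 24 (-0.32). Counts over the whole gene do not test whether exons were removed. The 14 T cell and Th17 markers were present in every library, with sums of 4205 and 4564 CPM in Setd2-CD4 cre 22 and 24, against 4114 and 4016 CPM in WT 13 and 15. Of these 14, 5 rose, among them Il23r, Il17a and Rora by at least 2-fold, and 4 fell (Cd3d, Cd3e, Cd3g and Trac). Other lists moved with the genotype too. Of 14 B cell markers, 11 rose and none fell, with a summed level of 811 and 554 CPM in Setd2-CD4 cre 22 and 24, against 269 and 228 CPM in WT 13 and 15, and none of the 14 was at 0. Of 12 dendritic and myeloid markers, 7 were tested and 1 rose, with sums of 40.8 and 46.9 CPM in Setd2-CD4 cre 22 and 24, against 38.1 and 33.4 CPM in WT 13 and 15, and Siglech was at 0 in all libraries while Clec9a, Xcr1 and Adgre1 were at 0 in both Setd2-CD4 cre libraries. CD8 T and NK markers summed to 493 and 308 CPM in Setd2-CD4 cre 22 and 24, against 216 and 240.4 CPM in WT 13 and 15 (3 of 6 tested rose), gamma-delta T cell markers to 33.6 and 37.8 CPM in Setd2-CD4 cre 22 and 24, against 17.3 and 14.01 CPM in WT 13 and 15 (1 of 5 rose), and erythroid and platelet markers to at most 1.52 CPM. Of 15 heat shock genes 13 rose, and the list summed to 8531 and 6899.6 CPM in Setd2-CD4 cre 22 and 24, against 4208 and 4143 CPM in WT 13 and 15. Of 22 S phase genes 18 fell, and the list summed to 2046 and 2301 CPM in Setd2-CD4 cre 22 and 24, against 3123 and 3296 CPM in WT 13 and 15. The part of these programs in the changes of the splicing genes was not tested, and in bulk RNA fewer cells of a type cannot be told apart from less RNA per cell.

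CLK kinases phosphorylate SR proteins in the nucleus and so set where and how they act. Of the 4 genes, Clk1 and Clk3 rose and none fell, where 16.2% of all genes tested rose and 14.5% fell. No test over a family was run, here or below. Clk1 (ENSMUSG00000026034, chromosome 1, 58410189 to 58424066 in GRCm38) had 859 and 717 CPM in Setd2-CD4 cre 22 and 24, against 436 and 367 CPM in WT 13 and 15 (log2 fold change 0.97 ± 0.14 SE, adjusted p = 0.00319 by edgeR). That is 1.96-fold higher, with no overlap between genotypes, a separation seen in this direction for 34.6% of all genes tested. Clk3 (ENSMUSG00000032316, chromosome 9, 57750711 to 57765860) had 422 and 333 CPM in Setd2-CD4 cre 22 and 24, against 224 and 226 CPM in WT 13 and 15 (log2 fold change 0.75 ± 0.13 SE, adjusted p = 0.00613 by edgeR). The call of Clk3 was lost without WT 13 (adjusted p = 0.0519) and without WT 15 (0.0552), at nearly the same fold change. Clk2 had 71.9 and 64.7 CPM in Setd2-CD4 cre 22 and 24, against 74.1 and 71.5 CPM in WT 13 and 15 (-0.09 ± 0.12 SE, adjusted p = 0.573), and Clk4 had 159 and 127 CPM in Setd2-CD4 cre 22 and 24, against 128 and 125 CPM in WT 13 and 15 (0.18 ± 0.13 SE, adjusted p = 0.306). Neither passed, and Clk4 passed only without Setd2-CD4 cre 24. Summed over the family, deposited counts made up, in percent of the library, 0.141 and 0.1197 in Setd2-CD4 cre 22 and 24, against 0.0903 and 0.0835 in WT 13 and 15. The count ratio of Clk1 to Clk4, which needs no scaling between libraries, was 5.39 and 5.63 in Setd2-CD4 cre 22 and 24 and 3.42 and 2.95 in WT 13 and 15. Clk3 overlaps Edc3 on the other strand over 1789 bases, and Edc3 did not pass (-0.19, adjusted p = 0.257).

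SR proteins, the substrates of these kinases, moved in both directions. Of 11 genes, Srsf12 and Srsf3 rose (18.2%) and Srsf1, Srsf2 and Srsf9 fell (27.3%), against 16.2% and 14.5% of all genes tested. Srsf12, which encodes an SR-related protein close to Srsf10 that in human cells opposes other SR proteins, showed the largest fold of all members. It had 76 and 55 counts in Setd2-CD4 cre 22 and 24, against 14 and 16 counts in WT 13 and 15, which is 7.403 and 5.04 CPM against 1.07 and 1.22 CPM (log2 fold change 2.43 ± 0.37 SE, adjusted p = 0.00359 by edgeR). Its level stayed low beside the other SR genes, at 1.17 CPM per kilobase of merged exons over all libraries, where Srsf5 stood at 105 and Srsf2 at 70.5. Srsf3, the smallest SR protein, which also acts in mRNA export, had 319.9 and 274 CPM in Setd2-CD4 cre 22 and 24, against 206 and 215 CPM in WT 13 and 15 (log2 fold change 0.50 ± 0.12 SE, adjusted p = 0.0159 by edgeR).

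Among the falls, Srsf2 (SC35, a marker of nuclear speckles; ENSMUSG00000034120, chromosome 11, 116849901 to 116853094) had 171 and 157 CPM in Setd2-CD4 cre 22 and 24, against 256 and 250.4 CPM in WT 13 and 15 (log2 fold change -0.63 ± 0.11 SE, adjusted p = 0.00487 by edgeR). Srsf9, a close relative of Srsf1, had 19.5 and 16.6 CPM in Setd2-CD4 cre 22 and 24, against 29.3 and 28.6 CPM in WT 13 and 15 (log2 fold change -0.68 ± 0.15 SE, adjusted p = 0.0144 by edgeR). Srsf1, the founding SR protein, had 305 and 351 CPM in Setd2-CD4 cre 22 and 24, against 469 and 428 CPM in WT 13 and 15 (log2 fold change -0.45 ± 0.12 SE, adjusted p = 0.0257 by edgeR). In each of the 3 genes both Setd2-CD4 cre libraries lay below both WT libraries, as in 36.1% of all genes tested. Their choice as called genes makes this likely. Srsf5 (-0.34 ± 0.11 SE, adjusted p = 0.0516) and Srsf7 (-0.28 ± 0.11 SE, adjusted p = 0.0829), the SR genes with the highest mean FPKM over the 4 libraries, lay lower without passing. Srsf5 passed with DESeq2 (adjusted p = 0.0485), limma-voom and no filter, and both passed with library totals, upper-quartile factors and FPKM values. The other 4 (Srsf10, Srsf11, Srsf4 and Srsf6) had log2 fold changes of -0.09 to 0.04 (adjusted p = 0.577 to 0.919). The calls of Srsf1 (adjusted p = 0.214 and 0.122), Srsf2 (0.0548 and 0.0533), Srsf3 (0.147 and 0.118) and Srsf9 (0.107 and 0.107) were lost without WT 13 and without WT 15. Srsf3 also lost its call with FPKM values (0.0632). Over the family, SR genes made up, in percent of all counts, 0.191 and 0.194 in Setd2-CD4 cre 22 and 24, against 0.244 and 0.238 in WT 13 and 15. These shares are relative to library totals. Under TMM factors the family summed to 2045 and 2011 CPM in Setd2-CD4 cre 22 and 24, against 2330 and 2253 CPM in WT 13 and 15. On either scale both Setd2-CD4 cre libraries lay below both WT libraries, as in 36.1% of all single genes tested under TMM factors. Mettl23 overlaps all of Srsf2 on the other strand and held 1085 counts where Srsf2 held 10113.

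Of the 9 members named Sf3a or Sf3b, whose products belong to the branch-point arm of the U2 snRNP, Sf3a1, Sf3b4 and Sf3b2 rose and none fell. The rises were 33.3% of the family, against 16.2% of all genes tested, of which 14.5% fell. Sf3a1 had 227 and 197 CPM in Setd2-CD4 cre 22 and 24, against 131 and 125 CPM in WT 13 and 15 (log2 fold change 0.73 ± 0.11 SE, adjusted p = 0.00394 by edgeR). Sf3b4 had 72.1 and 53.8 CPM in Setd2-CD4 cre 22 and 24, against 42.01 and 45.2 CPM in WT 13 and 15 (log2 fold change 0.53 ± 0.16 SE, adjusted p = 0.0402 by edgeR), and Sf3b2 had 417 and 386 CPM in Setd2-CD4 cre 22 and 24, against 321 and 317 CPM in WT 13 and 15 (log2 fold change 0.33 ± 0.11 SE, adjusted p = 0.0482 by edgeR). The other 6 of these members did not pass. Sf3b1, which holds the branch-point adenosine and is the most abundant of the group per kilobase (90.4 CPM per kilobase), had 1069.7 and 1012 CPM in Setd2-CD4 cre 22 and 24, against 1045 and 984 CPM in WT 13 and 15 (0.04 ± 0.12 SE, adjusted p = 0.834), and its sign turned with library totals, upper-quartile factors, FPKM values and without WT 15. The remaining 5 (Sf3a2, Sf3a3, Sf3b3, Sf3b5 and Sf3b6) had log2 fold changes of -0.47 to -0.06, and of these Sf3a3 and Sf3b6 passed as lower with upper-quartile factors, FPKM values and library totals (-0.45 and -0.62). Sf3a1 lost its call without WT 15 (adjusted p = 0.0537), Sf3b2 without WT 13 (0.271) and WT 15 (0.319), and Sf3b4 without Setd2-CD4 cre 22 (0.0769), WT 13 (0.202) and WT 15 (0.144). Sf3b2 and Sf3b4 also lost their calls with library totals (adjusted p = 0.218 and 0.0974) and upper-quartile factors (0.141 and 0.0827) and FPKM values (0.203 and 0.114). None of the 3 U2AF genes passed. U2af2, the subunit that binds the polypyrimidine tract, had 108 and 114 CPM in Setd2-CD4 cre 22 and 24, against 132 and 128 CPM in WT 13 and 15 (-0.22 ± 0.11 SE, adjusted p = 0.144), and U2af1, which reads the AG at the intron end, had 34.6 and 29.2 CPM in Setd2-CD4 cre 22 and 24, against 31.6 and 34.03 CPM in WT 13 and 15 (-0.04 ± 0.15 SE, adjusted p = 0.849), with a positive sign without Setd2-CD4 cre 24 and without WT 15. U2af2 passed as lower with upper-quartile factors, FPKM values and library totals (for the last, adjusted p = 0.0354). U2af1l4, a relative of U2af1, had a log2 fold change of -0.01 (adjusted p = 0.978).

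Of 21 hnRNP genes, 5 rose (23.8%) and 2 fell (9.52%), against 16.2% and 14.5% of all genes tested. The rises were Hnrnpa1 and Hnrnpa3 of the A group, Hnrnph1 and Hnrnph3 of the H group, which binds runs of G, and Hnrnpdl, a relative of Hnrnpd. Hnrnpdl (ENSMUSG00000029328, chromosome 5, 100033577 to 100039664) had 568 and 449 CPM in Setd2-CD4 cre 22 and 24, against 291 and 276 CPM in WT 13 and 15 (log2 fold change 0.84 ± 0.14 SE, adjusted p = 0.00431 by edgeR). Hnrnpa3 had 105 and 90.1 CPM in Setd2-CD4 cre 22 and 24, against 41.2 and 58.9 CPM in WT 13 and 15 (log2 fold change 0.96 ± 0.18 SE, adjusted p = 0.00864 by edgeR). Both genes, chosen because they were called, were higher in each Setd2-CD4 cre library than in either WT library, as were 34.6% of all genes tested. Hnrnph3 had 171 and 159 CPM in Setd2-CD4 cre 22 and 24, against 118 and 106 CPM in WT 13 and 15 (log2 fold change 0.57 ± 0.11 SE, adjusted p = 0.00917 by edgeR), Hnrnph1 had 424 and 411 CPM in Setd2-CD4 cre 22 and 24, against 302 and 286 CPM in WT 13 and 15 (0.50 ± 0.11 SE, adjusted p = 0.0108), and Hnrnpa1, a repressor of exon inclusion, had 236 and 186 CPM in Setd2-CD4 cre 22 and 24, against 151 and 155 CPM in WT 13 and 15 (0.47 ± 0.13 SE, adjusted p = 0.0318). Hnrnpa1 lost its call with library totals (adjusted p = 0.0948), upper-quartile factors (0.0737) and FPKM values (0.118).

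The 2 falls were Hnrnpab and Hnrnpr. Hnrnpab (ENSMUSG00000020358, chromosome 11, 51600100 to 51606847), a relative of Hnrnpd and Hnrnpdl, had 179.8 and 171 CPM in Setd2-CD4 cre 22 and 24, against 282 and 321 CPM in WT 13 and 15 (log2 fold change -0.78 ± 0.11 SE, adjusted p = 0.00292 by edgeR), which is 1.72-fold lower. Hnrnpr had 143 and 139.6 CPM in Setd2-CD4 cre 22 and 24, against 214 and 200.3 CPM in WT 13 and 15 (log2 fold change -0.55 ± 0.10 SE, adjusted p = 0.00771 by edgeR). The ratio of Hnrnpdl to Hnrnpab counts was 3.16 and 2.62 in Setd2-CD4 cre 22 and 24 and 1.03 and 0.8604 in WT 13 and 15. The genotypes did not overlap, which the calls of these 2 genes in opposite directions all but fix. Hnrnpc, which packages nascent RNA and had the highest deposited FPKM of the hnRNP genes as a mean over the 4 libraries, had 489 and 454 CPM in Setd2-CD4 cre 22 and 24, against 421 and 421 CPM in WT 13 and 15 (0.16 ± 0.11 SE, adjusted p = 0.275). Without WT 13 and without WT 15, calls were lost for Hnrnpa1 (adjusted p = 0.179 and 0.165), Hnrnph1 (0.0954 and 0.157), Hnrnph3 (0.0553 and 0.132) and Hnrnpr (0.0965 and 0.0657). Hnrnpa3 lost its call without Setd2-CD4 cre 22 (0.0971), Setd2-CD4 cre 24 (0.0686) and WT 13 (0.0504).

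Hnrnpu, a nuclear matrix protein gene named after its values were seen, stood far apart between the 2 Setd2-CD4 cre libraries. It had 505 and 787 CPM in Setd2-CD4 cre 22 and 24, against 764 and 770.0 CPM in WT 13 and 15 (-0.25 ± 0.20 SE, adjusted p = 0.384). Gm28062, a model on the same strand that overlaps it, held 2018 and 326 counts in Setd2-CD4 cre 22 and 24, against 556 and 240 counts in WT 13 and 15. Summed with that model, Hnrnpu stood at 702 and 817 CPM in Setd2-CD4 cre, against 806 and 788 CPM in WT (-0.07, adjusted p = 0.695). The other 12 hnRNP genes (Hnrnpa0, Hnrnpa1l2-ps, Hnrnpa2b1, Hnrnpd, Hnrnpf, Hnrnph2, Hnrnpk, Hnrnpl, Hnrnpll, Hnrnpm, Hnrnpul1 and Hnrnpul2) did not pass, with log2 fold changes of -0.28 to 0.81. The pseudogene Hnrnpa1l2-ps, the upper end of this range, stood at 1.75 to 4.97 CPM. Hnrnpa0, Hnrnpa2b1, Hnrnph2 and Hnrnpk, named because a scaling changed their call, passed as lower with library totals (-0.43 to -0.37) and lay lower under TMM factors too. The median of the hnRNP genes, 0.10 under TMM factors, was -0.05 with library totals.

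The numbered Rbm genes encode RNA-binding proteins of varied function, several of which act outside splicing. Of 33 tested, 6 rose (Rbm42, Rbm15, Rbm38, Rbm7, Rbm39 and Rbm5) and 4 fell (Rbm15b, Rbm4b, Rbm45 and Rbm10). These shares, 18.2% and 12.1%, stood near the 16.2% and 14.5% of all genes tested. Rbm15 and Rbm15b encode related proteins that guide the N6-methyladenosine writer complex to its RNA sites, and they moved in opposite directions. Rbm15 (ENSMUSG00000048109, chromosome 3, 107325421 to 107333673) had 212 and 227 CPM in Setd2-CD4 cre 22 and 24, against 108 and 98.2 CPM in WT 13 and 15 (log2 fold change 1.09 ± 0.11 SE, adjusted p = 0.00115 by edgeR). Rbm15b (ENSMUSG00000074102, chromosome 9, 106880918 to 106887428) had 18.5 and 21.2 CPM in Setd2-CD4 cre 22 and 24, against 44.5 and 45.99 CPM in WT 13 and 15 (log2 fold change -1.19 ± 0.14 SE, adjusted p = 0.00164 by edgeR). The count ratio of Rbm15 to Rbm15b was 11.4 and 10.7 in Setd2-CD4 cre 22 and 24 and 2.42 and 2.14 in WT 13 and 15. In the deposited table the span of Manf, on the same strand, covers all of Rbm15b, and Manf did not pass (-0.07, adjusted p = 0.715). Manf held 3385 counts where Rbm15b held 1609, so the sum is mostly Manf. With the counts of Manf added, Rbm15b had 80.8 and 97.6 CPM in Setd2-CD4 cre, against 115 and 121 CPM in WT, and still passed (-0.40, adjusted p = 0.0446).

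Rbm38, which encodes a protein that binds mRNAs and changes their stability and translation, had 250.4 and 246 CPM in Setd2-CD4 cre 22 and 24, against 125 and 118 CPM in WT 13 and 15 (log2 fold change 1.03 ± 0.10 SE, adjusted p = 0.00114 by edgeR). Rbm7, a subunit of the complex that hands nuclear RNA to the exosome, had 146 and 125 CPM in Setd2-CD4 cre 22 and 24, against 75.9 and 76.1 CPM in WT 13 and 15 (log2 fold change 0.83 ± 0.12 SE, adjusted p = 0.00303 by edgeR). The splicing factor gene Rbm39, whose protein resembles U2AF2, had 881 and 739 CPM in Setd2-CD4 cre 22 and 24, against 502 and 459 CPM in WT 13 and 15 (log2 fold change 0.75 ± 0.13 SE, adjusted p = 0.00585 by edgeR). For all 3 genes, chosen because they were called, each Setd2-CD4 cre library was above each WT library, as in 34.6% of all genes tested. Rbm5 and Rbm10, related splicing regulators that act on apoptosis genes, differed in direction. Rbm5 had 391 and 396 CPM in Setd2-CD4 cre 22 and 24, against 319 and 308 CPM in WT 13 and 15 (0.33 ± 0.10 SE, adjusted p = 0.0447), and Rbm10 had 58.4 and 60.2 CPM in Setd2-CD4 cre 22 and 24, against 74.7 and 80.2 CPM in WT 13 and 15 (-0.38 ± 0.11 SE, adjusted p = 0.0369). Rbm5 lost its call with library totals (adjusted p = 0.22), upper-quartile factors (0.132) and FPKM values (0.238), and Rbm10 lost its call with DESeq2 (0.0717). Rbm4b lost its call with FPKM at a pseudocount of 0.1 (adjusted p = 0.061). Rbm45 had 36.1 and 38.6 CPM in Setd2-CD4 cre 22 and 24, against 57.8 and 64.6 CPM in WT 13 and 15 (log2 fold change -0.71 ± 0.13 SE, adjusted p = 0.00684 by edgeR). Rbm4b, a copy of Rbm4, had 10.3 and 17.6 CPM in Setd2-CD4 cre 22 and 24, against 27.8 and 23.5 CPM in WT 13 and 15 (-0.87 ± 0.25 SE, adjusted p = 0.0366), while Rbm4, named for the comparison, had 30.003 and 36.2 CPM in Setd2-CD4 cre 22 and 24, against 26.8 and 28.3 CPM in WT 13 and 15 (0.26 ± 0.15 SE, adjusted p = 0.214). Gm37206, on the other strand within Rbm4b, held 2399 counts where Rbm4b held 971 and had a log2 fold change of -0.84 (adjusted p = 0.0838), and without strand information reads of the 2 cannot be told apart. Without WT 13 and without WT 15, calls were lost for Rbm5 (adjusted p = 0.244 and 0.339), Rbm10 (0.167 and 0.298) and Rbm4b (0.166 and 0.0858), and without WT 15 for Rbm39 (0.0843) and Rbm45 (0.0906).

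Count ratios within a library do not depend on scaling, and 10 pairs of related members, chosen after their values were seen, were compared in this way as a description without a test. Besides the pairs given above, Rbm4 over Rbm4b was 2.91 and 2.06 in Setd2-CD4 cre 22 and 24 and 0.964 and 1.21 in WT 13 and 15. The ratio of Clk3 to Clk2 was 5.86 and 5.15 in Setd2-CD4 cre 22 and 24 and 3.02 and 3.16 in WT 13 and 15. Hnrnph1 over Hnrnph2 was 3.68 and 3.27 in Setd2-CD4 cre 22 and 24 and 2.204 and 1.93 in WT 13 and 15. In these 3 pairs both Setd2-CD4 cre libraries were above both WT libraries, which a choice made after the values were seen favours. Srsf3 over Srsf7 was 3.11 and 2.804 in Setd2-CD4 cre 22 and 24 and 1.66 and 1.804 in WT 13 and 15. For Srsf1 over Srsf9, which both fell, the ratio was 15.6 and 21.1 in Setd2-CD4 cre 22 and 24 and 16.02 and 15.0 in WT 13 and 15, and the genotypes overlapped.

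**Figure D4:**
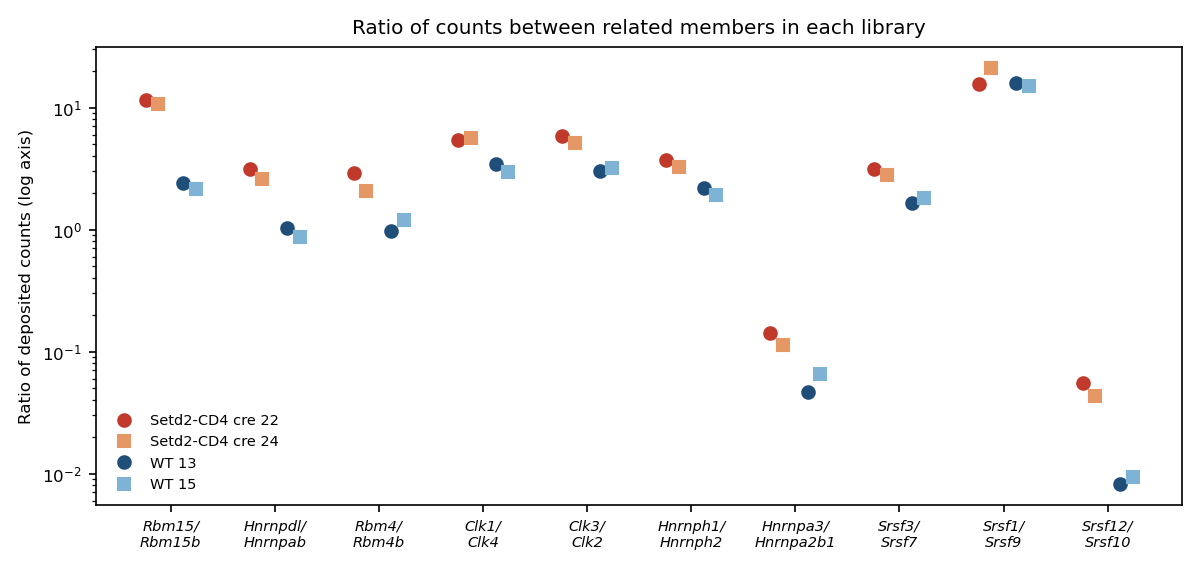
Ratio of deposited counts between pairs of related members in each library, on a log axis. The pairs were chosen after their values were seen. In each pair the 2 Setd2-CD4 cre libraries stand left of the 2 WT libraries. The ratios need no scaling between libraries; Rbm15 over Rbm15b is 10.7 and 11.4 in Setd2-CD4 cre and 2.14 and 2.42 in WT, and only Srsf1 over Srsf9 overlaps between genotypes.

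The rise of Rbm42 depended on how reads were assigned between overlapping gene models. Rbm42 had 808 and 802 counts in Setd2-CD4 cre 22 and 24, against 560 and 317 counts in WT 13 and 15 (log2 fold change 1.19 ± 0.27 SE, adjusted p = 0.0234 by edgeR). Gm21982, a model on the same strand that overlaps it over 9317 bases, held 22 and 28 counts in Setd2-CD4 cre 22 and 24, against 333 and 606 counts in WT 13 and 15 (log2 fold change -3.92, adjusted p = 0.00129 by edgeR). Where Rbm42 was low, in WT 15, the overlapping model was highest. Summed, they stood at 80.9 and 76.1 CPM in Setd2-CD4 cre, against 68.1 and 70.3 CPM in WT, and no longer passed (0.18, adjusted p = 0.242). The call of Rbm42 alone was also lost without Setd2-CD4 cre 22 (adjusted p = 0.342) and 24 (0.303). With all such models summed into the members, a setting chosen after these values were seen, 17 members rose and 10 fell. The one gained was Rbm12 (-0.41, adjusted p = 0.0234 by edgeR). The models summed into it, Gm28036 and Cpne1, held 6418 counts where Rbm12 held 1136, so the summed value is mostly theirs. Rbm12 alone did not pass under TMM factors (-0.40, adjusted p = 0.0887 by edgeR). Alone, it passed as lower with upper-quartile factors (-0.51, adjusted p = 0.0405) and library totals (-0.55, adjusted p = 0.034), and not with FPKM values.

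The other 23 tested Rbm genes did not pass. Rbm12, Rbm14, Rbm19, Rbm26, Rbm3, Rbm44, Rbm6 and Rbm8a had log2 fold changes of -0.57 to -0.09, and Rbm11, Rbm17, Rbm18, Rbm20, Rbm22, Rbm25, Rbm27, Rbm28, Rbm33, Rbm34, Rbm4, Rbm41, Rbm43, Rbm47 and Rbm48 had 0.00 to 1.10. Among these, Rbm11, Rbm20 and Rbm47 held at most 29 counts in any library. Rbm3, a cold-induced RNA-binding protein gene named after its values were seen, had 199.8 and 175 CPM in Setd2-CD4 cre 22 and 24, against 221 and 234 CPM in WT 13 and 15 (-0.28 ± 0.11 SE, adjusted p = 0.0916), and passed as lower with upper-quartile factors, FPKM values and library totals (for the last, adjusted p = 0.0222). Of the 3 members not tested for low counts, Rbm24 had 2 and 12 counts in Setd2-CD4 cre 22 and 24, against 2 and 4 counts in WT 13 and 15, Rbm46 had 1 count in Setd2-CD4 cre 22 and 0 in the others, and Rbm31y was at 0 in all 4. A count of 0 in a library allows up to 3 counts, or 0.228 to 0.292 CPM, by counting error alone.

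Members also carried many annotated non-productive transcripts. In GENCODE release M21, 39 of the 80 tested protein-coding members (48.8%) had a transcript classed as a target of nonsense-mediated decay, against 29.8% of the 11672 protein-coding genes tested. A retained-intron transcript was annotated for 59 members (73.8%), against 60.5% of those genes. Of the 18 members that rose, 15 had a retained-intron transcript and 10 a decay transcript, and of the 9 that fell, 4 and 5 did. Among all protein-coding genes tested, 64.4% of those that rose had a retained-intron and 33.4% a decay transcript. For those that fell the shares were 54.4% and 26.0%, both lower. Among the members the retained-intron share was lower in fallen genes (44.4%) than in risen ones (83.3%), and the decay share was 55.6% in both. The members had a median of 6.5 annotated transcripts and all protein-coding genes tested 5. The deposited values hold 1 count per gene, and the use of these forms was not analysed here.

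Levels between members depended on the length used. The deposited FPKM imply gene lengths that run from 0.295 to 8.803 times the merged exons of GENCODE M21 (median 1.34), and exceed them for 63 members. For U2af1l4 the implied length is 14578 bases and the merged exons span 1656, so its FPKM ranks it at place 73 of 84. The order also differed between genotypes. By mean CPM per kilobase of merged exons, Setd2-CD4 cre cultures had Rbm39 (117), Hnrnpa2b1 (116), Hnrnpf (115), Hnrnpc (109) and Hnrnpdl (106) at the top. WT cultures had Hnrnpa2b1 (136), Srsf5 (117), Hnrnpf (115), Hnrnpab (108) and Hnrnpc (97.4). By mean FPKM the top 3 were Clk3 (143), Hnrnpc (142) and Sf3b2 (118) in Setd2-CD4 cre, and Hnrnpc (141), Sf3b2 (104) and Clk3 (95.02) in WT. In Setd2-CD4 cre, the first 3 genes per kilobase, and Clk3 and Hnrnpc in FPKM, lay closer to each other than Rbm39 or Clk3 did between the libraries. Over the members' means of all 4 libraries the 2 scales had a Spearman correlation of 0.883, and they share the counts and differ in length and in library scaling.

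Other splicing genes, from lists that hold no member, gave the surroundings of these changes. Their counts are under TMM factors only. They stand beside 16.2% higher and 14.5% lower of all genes tested, and 25.2% and 11.2% of genes at or above 42.1 CPM. The lists were not counted with library totals, upper-quartile factors or FPKM values. Those scalings moved the median log2 fold change of all genes to between -0.16 and -0.12. Of 34 proteins of the U1, U2, U4, U5 and U6 snRNPs, 3 genes rose and 3 fell (median log2 fold change -0.01). The falls included Prpf31, a scaffold of the U4/U6 particle, with 21.3 and 18.3 CPM in Setd2-CD4 cre 22 and 24, against 46.1 and 50.9 CPM in WT 13 and 15 (log2 fold change -1.29 ± 0.15 SE, adjusted p = 0.00146 by edgeR), and the Sm protein gene Snrpb, with 70.9 and 71.7 CPM in Setd2-CD4 cre 22 and 24, against 123 and 131 CPM in WT 13 and 15 (-0.83 ± 0.11 SE, adjusted p = 0.00206). Txnl4a, a U5 protein gene, rose (0.67 ± 0.17 SE, adjusted p = 0.0218). Of 35 assembly and catalytic factors, 10 rose and 1 fell (median 0.21). Bcas2, of the Prp19 complex, had 133 and 116 CPM in Setd2-CD4 cre 22 and 24, against 67.02 and 61.5 CPM in WT 13 and 15 (0.95 ± 0.12 SE, adjusted p = 0.00198), Sf1, the protein that first binds the branch point, rose (0.77 ± 0.11 SE, adjusted p = 0.0027), and so did Smndc1, a Tudor protein of the spliceosome (0.85 ± 0.13 SE, adjusted p = 0.00397). Of 35 tested splicing regulators outside the member families, 13 rose and 2 fell (median 0.18).

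Tra2a, which encodes an SR-like activator, had 334 and 342 CPM in Setd2-CD4 cre 22 and 24, against 151 and 179.9 CPM in WT 13 and 15 (log2 fold change 1.03 ± 0.12 SE, adjusted p = 0.00148 by edgeR). Cirbp, the cold-inducible relative of Rbm3, had 11.7 and 18.3 CPM in Setd2-CD4 cre 22 and 24, against 46.1 and 41.2 CPM in WT 13 and 15 (log2 fold change -1.54 ± 0.22 SE, adjusted p = 0.0031 by edgeR). The nuclear matrix protein gene Matr3 rose (0.84 ± 0.14 SE, adjusted p = 0.00423). Of 12 exon junction complex genes, 2 rose and 1 fell, with Casc3 at 289.9 and 255 CPM in Setd2-CD4 cre 22 and 24, against 137 and 124 CPM in WT 13 and 15 (1.07 ± 0.12 SE, adjusted p = 0.00131), Acin1 higher (0.54 ± 0.11 SE, adjusted p = 0.011) and Eif4a3, the core helicase, lower (-0.42 ± 0.11 SE, adjusted p = 0.0253). Of 10 decay factors, Smg6, the endonuclease of nonsense-mediated decay (0.78 ± 0.13 SE, adjusted p = 0.00432), and Smg5 (0.55 ± 0.10 SE, adjusted p = 0.00812) rose, and Upf2 did not pass (0.38 ± 0.13 SE, adjusted p = 0.0609). Among 10 other SR protein kinases, Srpk2 rose (0.40 ± 0.12 SE, adjusted p = 0.0339), Srpk1 did not pass (0.31 ± 0.11 SE, adjusted p = 0.0677), and Srpk3 rose at low counts (18 and 11 counts in Setd2-CD4 cre 22 and 24, against 5 and 1 counts in WT 13 and 15; 2.53 ± 0.76 SE, adjusted p = 0.0391). In the minor spliceosome, which removes a rare class of introns, Snrnp48 (1.003 ± 0.11 SE, adjusted p = 0.00138) and Zrsr2 (0.61 ± 0.11 SE, adjusted p = 0.00695) rose of 10 genes, and Rnpc3 did not pass (-0.35 ± 0.14 SE, adjusted p = 0.0854). Of the 3 reader genes tied to splicing, Morf4l1 had 181 and 163 CPM in Setd2-CD4 cre 22 and 24, against 109 and 98.6 CPM in WT 13 and 15 (log2 fold change 0.73 ± 0.12 SE, adjusted p = 0.00403 by edgeR), while Psip1 (-0.20 ± 0.11 SE, adjusted p = 0.182) and Zmynd11 (-0.01 ± 0.12 SE, adjusted p = 0.953) did not pass.

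**Figure D5:**
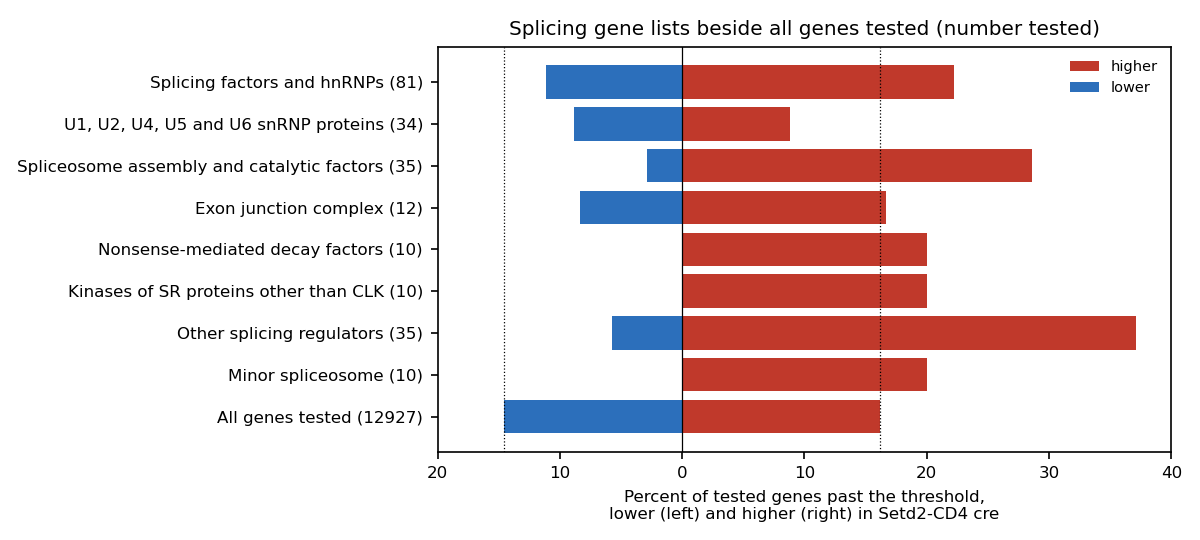
Percent of tested genes in each list that were lower (left, blue) or higher (right, red) in Setd2-CD4 cre than in WT by edgeR, with the number tested in brackets; dotted lines mark the shares over all genes tested, 14.5% lower and 16.2% higher. The splicing factors and hnRNPs stand at 11.1% lower and 22.2% higher. Among the 5229 genes at or above 42.1 CPM, the lower quartile of the members' mean CPM, 11.2% were lower and 25.2% higher.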

How the data were processed

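RNA was sequenced from 4 libraries, 2 Setd2-CD4 cre and 2 WT, grouped by sample title. For WT 15 the title and the cell type label give different numbers (15 and 14), and the title's was used. The authors deposited whole-number counts per gene and FPKM values, per the file headers. Bowtie2, RSEM, GRCm38.p6 and mm10 are named in the submitters' processing notes without versions or roles. The sources used here do not give strand use or how RSEM's estimates became whole. Members were matched by symbol, all with unique names.

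Counts were tested with edgeR 4.0.16 (R 4.3.3) with TMM factors, filterByExpr and a robust quasi-likelihood fit, adjusted by Benjamini-Hochberg over 12927 genes at 0.05. SE is the log2 fold change divided by the root of F. CPM use TMM-scaled library sizes. Alternatives used DESeq2 1.42.0, limma 3.58.1 (voom, or trend on log2(FPKM + 1) and log2(FPKM + 0.1)), other factors, no filter and each library left out. Members and lists were chosen with earlier results of these data known. Named genes are Setd2, called members, the 2 members per family with the highest FPKM, untested members with 10 or more counts and the 3 smallest p-values per splicing list; other members are listed to account for all. All 249 listed symbols were found. Replicates differed by more than counting noise (chi-square per degree of freedom 17.4 in Setd2-CD4 cre and 8.27 in WT). Nothing says that libraries came from separate animals, so p-values measure only the spread between samples. With 2 against 2, an exact two-sided permutation test cannot go below 0.333. Coordinates of genes are those of the deposited table, and those of promoter windows are from RefSeq. Protein sequences were not used here.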

Additional observations from a re-analysis of the deposited data

How the results depend on the processing

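No paired analysis was possible because the genotypes share no replicate number. Members called lower numbered 9 under TMM factors, 20 with library totals, 19 under upper-quartile factors, and 18 and 17 with FPKM at pseudocounts of 1 and 0.1. The median log2 fold change of the members was 0.04 under TMM factors, -0.11 with library totals, -0.074 under upper-quartile factors, and -0.11 with either pseudocount. Setd2 passed in the same 4 settings as lower, at -0.43, -0.39, -0.38 and -0.43 in that order. With single libraries left out, calls over all genes ran from 1104 to 5706, members higher from 8 to 22, members lower from 2 to 16, the members' median from 0.02 to 0.05 and Setd2 from -0.32 to -0.23. Sf3b1 reversed to -0.11 with library totals and with either FPKM pseudocount (-0.11), to -0.074 under upper-quartile factors and to -0.0062 without WT 15, and ran up to 0.082 with single libraries left out. U2af1 ran from -0.16 to 0.079 in those fits and reversed without Setd2-CD4 cre 24 (0.079) and without WT 15 (0.012). Calls were also followed over 33 tested members, those called or among the 2 of their family with the highest FPKM. In settings that kept all libraries, 21 of their calls were lost and 15 gained. Of these members 27 were called under TMM factors and so could only lose a call. Gains of other tested members, such as Rbm3 and Rbm12, are not in these counts. The cause of these changes was not tested. Fits with a library left out hold fewer samples, and their calls over all genes ran both above and below those of the full fit.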
